A study of Homo sapiens with 24 samples.

Results

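The replication-dependent histone genes were followed through HCT116 colorectal cancer cells that lose UHRF1, DNMT1 or both. Members were taken by name, as every gene whose current symbol is H1-1 to H1-5 or begins with H2AC, H2BC, H3C or H4C and a digit, and 13 pseudogenes were left out. The rule gave 69 symbols. Of these, 65 could be matched to a gene of the count tables, among 58207 genes with a symbol, while H2AC18, H2AC19, H3C2 and H3C3 were not analysed here. The 65 members are 5 H1, 15 H2A, 19 H2B, 11 H3 and 15 H4 genes, and 52 of them lie on chromosome 6 and 11 on chromosome 1.

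RNA was sequenced from 4 lines, in 8 groups of 3 libraries. HCT116 is a line from a human colorectal carcinoma, and the version used here makes OsTIR1, a plant ubiquitin ligase subunit, when doxycycline is given. The WT line carries no tagged protein. In the other lines the endogenous UHRF1 (UHRF1-AID), DNMT1 (DNMT1-AID) or both proteins (UHRF1-AID/DNMT1-AID, called the compound line here) carry the AID degron, through which OsTIR1 marks them for destruction once auxin is present. Each line was sampled before treatment (day 0) and after 4 days in 500 µM auxin with 2 µg/mL doxycycline, which followed 1 day of doxycycline with 20 µM auxinole, so that WT cells at day 4 had seen the same agents as the tagged lines. DNMT1 copies DNA methylation onto new DNA strands and UHRF1 recruits it to hemimethylated sites. The degron acts on the protein, so the counts of UHRF1 and DNMT1 mRNA do not check the labels, and no protein was measured in these libraries. The tagged lines were isolated as clones, and the labels do not say which clone or culture a library came from, so p-values measure the spread between these libraries.

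These genes supply the histones that package newly copied DNA. The H3 and H4 proteins form the core of the nucleosome, H2A and H2B dock onto it as dimers, and H1 binds the linker DNA between nucleosomes. Their transcription and RNA processing are tied to S phase, and their mRNAs usually end in a conserved stem-loop rather than in a poly(A) tail. The stem-loop is bound by SLBP, and the cut just after it is made by a complex with the U7 small nuclear RNA. Histone mRNAs can also end in a poly(A) tail, when a polyadenylation site past the stem-loop is used, as is known from differentiating or non-dividing cells. The libraries here were made from poly(A) RNA, so the counts are read as polyadenylated histone transcripts. They do not measure the bulk of histone mRNA that ends at the stem-loop. How much RNA without a tail passed into the libraries was not measured.

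A stem-loop was found within 200 bases after the stop codon of 64 of the 65 members, with at most 2 mismatches to the 16-base consensus, and in 47 of them with none. It began between 22 and 62 bases after the stop codon, with a median of 35. H2BC12L, on chromosome 21, had none. The 3 stem-loops of the most counted members, those of 2 members that moved in opposite directions from neighbouring starts (H2BC21 and H2AC20), and 2 H4 stem-loops are printed here from hg38, 5′ to 3′ on the gene's strand, with the 16 bases of the stem-loop in capitals and 5 bases on each side.
H1-2: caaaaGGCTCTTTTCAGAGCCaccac
H2AC25: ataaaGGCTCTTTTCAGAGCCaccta
H2BC12: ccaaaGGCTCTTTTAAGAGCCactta
H2BC21: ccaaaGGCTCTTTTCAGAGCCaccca
H2AC20: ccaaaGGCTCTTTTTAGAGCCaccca
H4C9: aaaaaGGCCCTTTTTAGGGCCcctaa
H4C8: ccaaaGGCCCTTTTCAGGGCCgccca
The capitals lie at chr6:26055744-26055759 for H1-2, chr1:228457369-228457384 for H2AC25, chr6:27146366-27146381 for H2BC12, chr1:149886188-149886203 for H2BC21, chr1:149887391-149887406 for H2AC20, chr6:27139654-27139669 for H4C9 and chr6:26285131-26285146 for H4C8. The H2AC20 and H4C9 genes lie on the plus strand and the others of this group on the minus strand. The stem opened with GGCTC in all H1 and H3 members, in 14 of 15 H2A members and in the 18 H2B members with a stem-loop, and with GGCCC in all 15 H4 members.

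In the gene models used for counting, 27 members ran 50 bases or more past the stem-loop and could collect reads from longer transcripts there. H2AC25 ran 390 bases past it and H2BC21 1729 bases. The H1-2 and H2BC12 models ended before the stem-loop, so their reads came from the coding sequence alone. For H1-2 the letters AATAAA, the common polyadenylation signal, stood 12 bases past the stem-loop, and the same distance was found for H2BC5. For H2BC12 the first AATAAA stood 1552 bases past it. A match is a description of the sequence and does not show that the site is used.

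The members are short. Their median exon length was 509 bases, between 297 and 5477, against 2625 for the 31297 genes with a count, and 52 of the 65 have 1 exon. A short gene collects few reads, and near-identical copies can share them. In 47 members no stretch of 100 bases recurred in a transcript of a gene elsewhere in the genome, while in 10 members over 50% of such stretches did. H2BC12 shared 28.4% of its stretches with H2BC12L and with a gene without a symbol, and H2AC20 shared 17.2% with H2AC18 and H2AC19. H4C12 shared all of its stretches with H4C11. H2AC13 shared 57.7% with H2AC14, and H4C14 shared all of its stretches with H4C15 and H3C15. The levels of these members are uncertain. Whether counting used strand and how reads with several alignments were treated is not given in the sources used here. Exons of 14 members overlapped an exon of another gene. H1-2, H2AC25 and H2BC12 were not among these.

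Promoter sequence was matched in RefSeq (GRCh38.p14) for 59 members, as 250 bases before to 50 after the start. The octamer ATTTGCAT, which POU2F1 binds, stood on either strand in 44.1% of them against 1.77% of 35116 promoters of the same length. It was found in 11 of 14 H2A and 14 of 18 H2B promoters, in 1 of 9 H3 promoters and in no H1 or H4 promoter, and the H3 promoter with it, that of H3C4, is the same window as that of H2AC7. CCAAT stood in 83.1% of member promoters against 34.6% of all, and in 3 of 13 H4 promoters. TATAAA stood in 66.1% against 11.5%. No match says only that these letters are not in the window. The 200 bases before the start are printed for H1-2 (chr6:26056471-26056670, minus strand), which had the largest fold of the 3 most counted members in the compound line, and for H2BC21 (chr1:149886683-149886882, minus strand), whose start lies opposite that of H2AC20. The octamer, CCAAT and TATAAA are in capitals, on either strand.
H1-2: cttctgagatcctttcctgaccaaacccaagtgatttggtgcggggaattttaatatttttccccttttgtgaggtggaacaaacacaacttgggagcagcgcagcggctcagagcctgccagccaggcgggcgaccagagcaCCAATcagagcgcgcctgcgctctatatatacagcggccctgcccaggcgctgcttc
H2BC21: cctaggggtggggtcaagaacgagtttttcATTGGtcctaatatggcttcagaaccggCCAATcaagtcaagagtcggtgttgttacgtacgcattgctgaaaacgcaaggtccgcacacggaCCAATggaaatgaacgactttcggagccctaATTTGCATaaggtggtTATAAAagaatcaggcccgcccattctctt

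Of the 65 members, 14 had no count in any of the 24 libraries, 8 had between 1 and 10 counts in all, and 51 had a count in at least 1 library. Of the 14 silent members, H2AC7 and H3C4 lie in exons of another gene on the same strand, H2AC16 in an exon of H2BC15, and H2AC15 opposite an exon of H2BC15, so reads from these 4 may not have been assigned to them. The counts fell on few genes. H2AC25 (30039 counts over all libraries), H1-2 (19052) and H2BC12 (15079) together took 68.2% of the counts on members, and the 10 highest took 94.5%. Levels are given in CPM, which divides a count by the library's counts on genes, after edgeR's TMM scaling over all libraries. Per kilobase of exon, the mean level over the 24 libraries was 92.2 CPM for H2BC12, 77.6 for H2AC25 and 69.4 for H1-2. Next came the H2A gene H2AC6 with 12.3, the H2B gene H2BC5 with 11.5 and the H4 gene H4C9 with 8.76 CPM per kilobase. The highest H3 gene, H3C10, reached 2.92 and H3C6 1.10 CPM per kilobase. H2AC20 was at 4.37, H2BC21 at 2.51, the H4 genes H4C12 and H4C11 at 1.05 and 0.587, and H1-4, the second H1 gene, at 0.457 CPM per kilobase.

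Summed over all members, histone RNA in these poly(A) libraries was low before auxin and higher at day 4 in every line, most of all in UHRF1-AID/DNMT1-AID cells. In WT cells the sum was 78.3, 77.3 and 103 CPM at day 0 and 217, 175 and 199 at day 4. In UHRF1-AID cells it was 67.2, 81.9 and 83.95 at day 0 and 226, 309 and 355 at day 4. DNMT1-AID cells had 99.01, 111 and 112 CPM at day 0 and 268, 225 and 321 at day 4. In UHRF1-AID/DNMT1-AID cells the sum went from 107, 112 and 121 to 603, 579 and 595. Every day 4 library lay above every day 0 library. The 3 compound libraries of day 4 lay above all others, while the UHRF1-AID and DNMT1-AID libraries of day 4 overlapped each other.

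By family, H2A had the largest sum in every group and H3 the smallest. At day 4 the H2A sum was 87.5 ± 11.6 CPM (mean ± SD, n = 3) in WT and 237 ± 15.8 in UHRF1-AID/DNMT1-AID cells. The H2B sum was 58.2 ± 7.98 and 145 ± 14.2 CPM, and the H1 sum 30.4 ± 1.84 and 163 ± 8.26 CPM. For H4 the sums were 13.1 ± 0.964 and 32.6 ± 3.19 CPM, and for H3 7.76 ± 0.408 and 14.6 ± 2.15 CPM. Without H1-2, H2AC25 and H2BC12 the sum over the other members was 70.1 ± 9.32 CPM in WT and 156 ± 8.45 in the compound line at day 4. H1-2 took between 13.4% and 13.7% of the members' sum in WT libraries at day 0 and between 26.5% and 28.2% in the compound line at day 4.

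**Figure D1:**
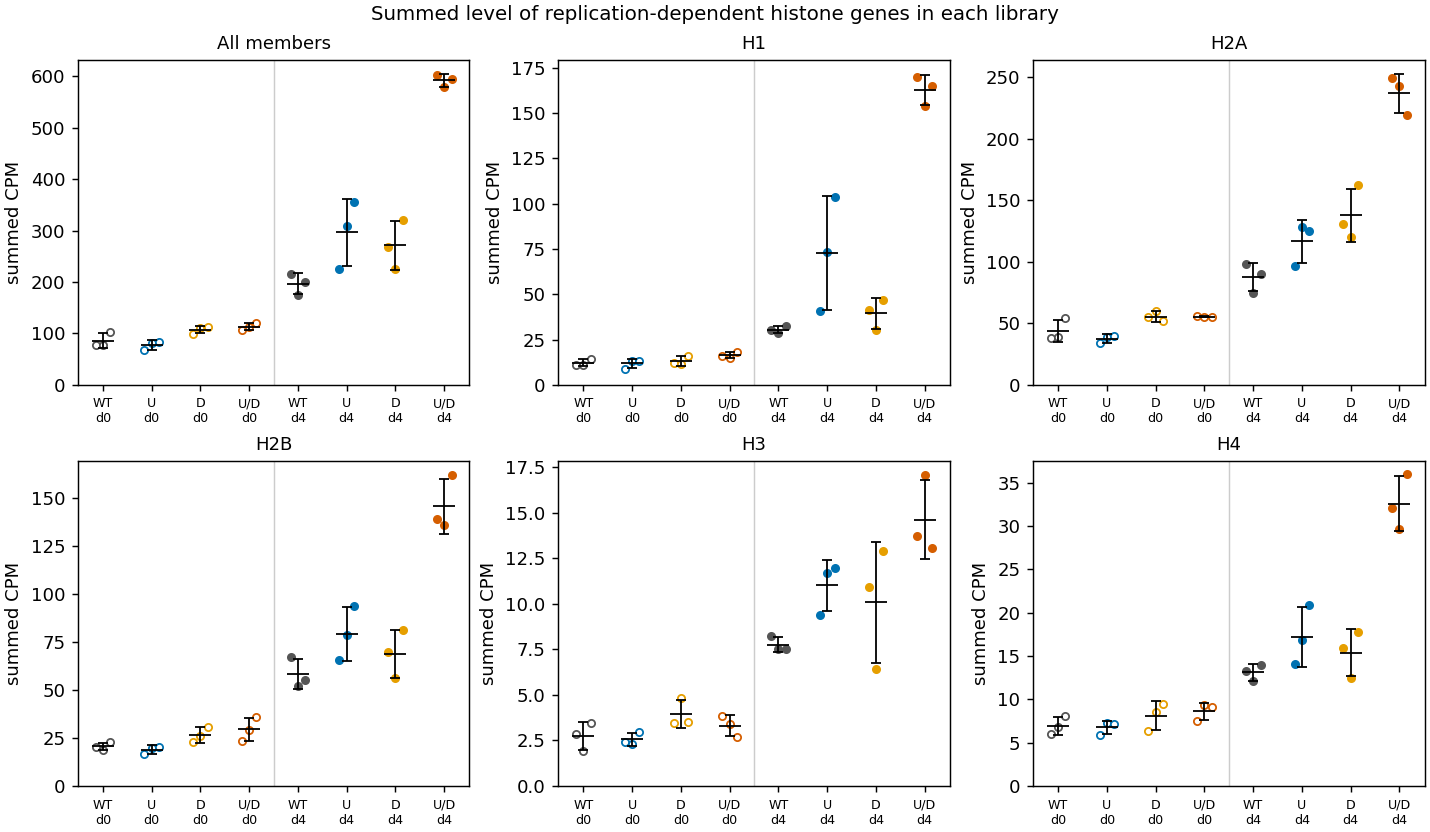
Summed level of the members, in all and by family, in each library (points, linear axes from 0, CPM), with the group mean and SD as bars. WT, UHRF1-AID (U), DNMT1-AID (D) and UHRF1-AID/DNMT1-AID (U/D) cells are shown at day 0 (d0, open points) and day 4 (d4, filled points), and the U/D libraries at day 4 lie between 579 and 603 CPM in the panel of all members.

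How far the members changed over the 4 days was tested in each line. A gene was tested if enough libraries held counts, and was called at an adjusted p under 0.05 with an absolute log2 fold change over 1. Given with each fold change are its standard error (SE) and the Benjamini-Hochberg adjusted p of edgeR's quasi-likelihood test over all genes tested. Over the 13 comparisons 23 members were tested in at least 1, 12 in all, and 17 were called in at least 1. The other 42 members were too low to be tested in any. Where numbers are given at an unadjusted p under 0.05, the share of all genes at that p was not computed.

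In WT cells, 10 of 16 tested members rose between day 0 and day 4, when 5.37% of all genes tested did, and 1 fell, against 6.53% of all genes. At any fold 11 passed upwards and 1 downwards, against 17.7% and 17.8% of all genes, and the libraries did not overlap in 11 members that were higher and 2 that were lower, against 24.1% and 24.6%. The median of the tested members was a log2 fold change of 1.26, while that of all genes was -0.03. Among the 10 that rose, H2BC4 and H2AC13 passed the filter through the day 4 libraries, where they are high. H2BC4 had 6, 6 and 7 counts at day 0 and 25, 22 and 25 at day 4. H2AC13 had 2, 3 and 3 counts at day 0 and 23, 14 and 11 at day 4. H2BC12 was at 11.02, 10.3 and 12.05 CPM at day 0 and at 42.3, 33.7 and 36.9 at day 4 (log2 fold change 1.76 ± 0.14, adjusted p = 8.3e-05). H2AC6 went from 6.05, 5.89 and 8.61 to 27.4, 20.7 and 22.5 CPM (log2 fold change 1.79 ± 0.19, adjusted p = 0.000313). For both genes the 2 groups lay far apart. H1-2 rose (log2 fold change 1.39 ± 0.15, adjusted p = 0.000331), as did H2BC21 (log2 fold change 2.28 ± 0.26, adjusted p = 0.0004), the H3 gene H3C6 (log2 fold change 2.11 ± 0.29, adjusted p = 0.000926) and H4C9 (log2 fold change 1.14 ± 0.16, adjusted p = 0.00127). H2AC25, the most counted member, passed the adjusted p but not the fold threshold (log2 fold change 0.93 ± 0.17, adjusted p = 0.0035). The exception was H2AC20, at 2.83, 1.74 and 2.65 CPM at day 0 and 1.02, 0.963 and 0.842 at day 4, which fell (log2 fold change -1.34 ± 0.29, adjusted p = 0.00805).

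In UHRF1-AID cells, 12 of 18 tested members rose, when 12.1% of all genes did, and 2 fell, against 9.82% of all genes. At any fold the numbers were the same, 12 and 2, against 26.5% and 22.9% of all genes. Without overlap they were also 12 and 2, against 30.5% and 29.6%, but not for all the same members. H2BC11 was called higher though its groups overlapped (up to 0.565 CPM at day 0, from 0.487 at day 4). H2BC26 did not overlap and was not called (adjusted p = 0.213). The median of the members was 1.64 and that of all genes 0.02. Among the 12 that rose, at least H2BC4, H2AC13 and H2BC11 passed the filter through the day 4 libraries, where they are high. H2BC4 had 5, 9 and 13 counts at day 0 and 43, 42 and 56 at day 4. For H2AC13 they were 8, 5 and 6 and then 21, 17 and 16. For H2BC11 they were 1, 5 and 14 and then 10, 23 and 46. With at least 10 counts in every library, 9 members were called. The largest increase was that of H2BC21, from 0.4998, 0.515 and 0.525 CPM at day 0 to 8.82, 12.8 and 14.1 at day 4 (log2 fold change 4.54 ± 0.28, adjusted p = 7.61e-06). H1-2 went from 8.15, 12.3 and 12.6 to 40.7, 73.5 and 104 CPM (log2 fold change 2.75 ± 0.33, adjusted p = 0.000322), with a wide spread at day 4. H2AC6 (log2 fold change 2.57 ± 0.17, adjusted p = 1.01e-05), H2BC12 (log2 fold change 2.19 ± 0.18, adjusted p = 2.58e-05), H2AC25 (log2 fold change 1.603 ± 0.17, adjusted p = 8.71e-05), H3C6 (log2 fold change 2.2 ± 0.26, adjusted p = 0.000177) and H4C9 (log2 fold change 1.67 ± 0.20, adjusted p = 0.000185) rose as well. H2AC20 fell (log2 fold change -1.52 ± 0.48, adjusted p = 0.0248), a call that was lost without day 0 library 2 (adjusted p up to 0.107 over the libraries left out), without day 0 library 3 or without day 4 library 1. H1-4, a linker histone gene like H1-2, had 11, 18 and 21 counts at day 0 and 0, 0 and 5 at day 4 (log2 fold change -3.14 ± 0.81, adjusted p = 0.0102). H1-4 passed the filter through the day 0 libraries, where it is high, and that limits its call. Its groups did not overlap, and it moved against H1-2 in the same cells.

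DNMT1-AID cells had 9 of 16 tested members higher at day 4 and none lower, when 8.62% and 6.68% of all genes were called higher and lower. At any fold 10 were higher and 0 lower, against 19.5% and 20.8% of all genes, and 10 and 1 did not overlap, against 25.4% and 28.5%. The median of the members was 1.22 and that of all genes -0.01. H2AC13, among the 9, passed the filter through the day 4 libraries, where it is high. It had 9, 8 and 7 counts at day 0 and 22, 18 and 26 at day 4. H2AC25 went from 39.5, 43.8 and 37.3 CPM to 94.7, 88.02 and 118 (log2 fold change 1.34 ± 0.14, adjusted p = 6.66e-05), and the groups were well apart. The others of the 6 with the smallest p were H2AC6 (log2 fold change 1.72 ± 0.17, adjusted p = 5.11e-05), H2BC12 (log2 fold change 1.54 ± 0.17, adjusted p = 9.66e-05), H1-2 (log2 fold change 1.67 ± 0.21, adjusted p = 0.000168), H2BC21 (log2 fold change 2.74 ± 0.39, adjusted p = 0.000431) and H3C6 (log2 fold change 1.83 ± 0.31, adjusted p = 0.00118). H2AC20 was at 2.599, 2.02 and 2.42 CPM at day 0 and 1.41, 1.39 and 1.49 at day 4, a difference that did not pass the test (log2 fold change -0.69 ± 0.30, adjusted p = 0.0871).

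In the compound line, 14 of 21 tested members rose over the 4 days, when 15.1% of all genes did, and none fell, against 11.5% of all genes. At any fold 16 were higher and 1 lower, against 35.2% and 32.5% of all genes, and 17 and 1 did not overlap, against 35.2% and 36.5%. Of these members 5 were not tested in every line. Among them H4C8, H2BC17 and H4C12 rose, and they passed the filter through the day 4 libraries, where they are high. H4C8 had 2, 0 and 1 counts at day 0 and 11, 31 and 30 at day 4. For H2BC17 they were 4, 4 and 5 and then 19, 15 and 29. For H4C12 they were 7, 8 and 9 and then 13, 14 and 9. Of the 16 tested in every line 11 rose. These 16 include H2BC4 and H2AC13, which were tested in no comparison of day 0 groups and entered through day 4. H2BC11, among the 11, also entered through day 4, with 10, 5 and 10 counts at day 0 and 44, 32 and 75 at day 4. With at least 10 counts in every library, 8 members were called. The median was 2.17 over the members and 0.02 over all genes. H1-2 went from 15.5, 14.03 and 17.9 CPM at day 0 to 170.0, 154 and 165 at day 4 (log2 fold change 3.41 ± 0.10, adjusted p = 2.71e-14), a fold of 10.6. H2AC25 went from 42.9, 39.4 and 38.4 to 189.5, 180.4 and 159 CPM (log2 fold change 2.17 ± 0.09, adjusted p = 7.21e-13). H2BC21 was below or near 1 CPM at day 0 and at 16.4, 15.8 and 21.5 at day 4 (log2 fold change 4.47 ± 0.21, adjusted p = 4.98e-12). H2AC6 (log2 fold change 2.604 ± 0.12, adjusted p = 7.07e-12), H2BC12 (log2 fold change 2.69 ± 0.12, adjusted p = 9.94e-11) and H4C9 (log2 fold change 2.13 ± 0.13, adjusted p = 2.3e-10) complete the 6 with the smallest p. H2AC20 went from 2.54, 2.504 and 2.35 to 1.04, 1.84 and 1.37 CPM, a difference that passed the adjusted p but not the fold threshold (log2 fold change -0.76 ± 0.30, adjusted p = 0.0323).

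**Figure D2:**
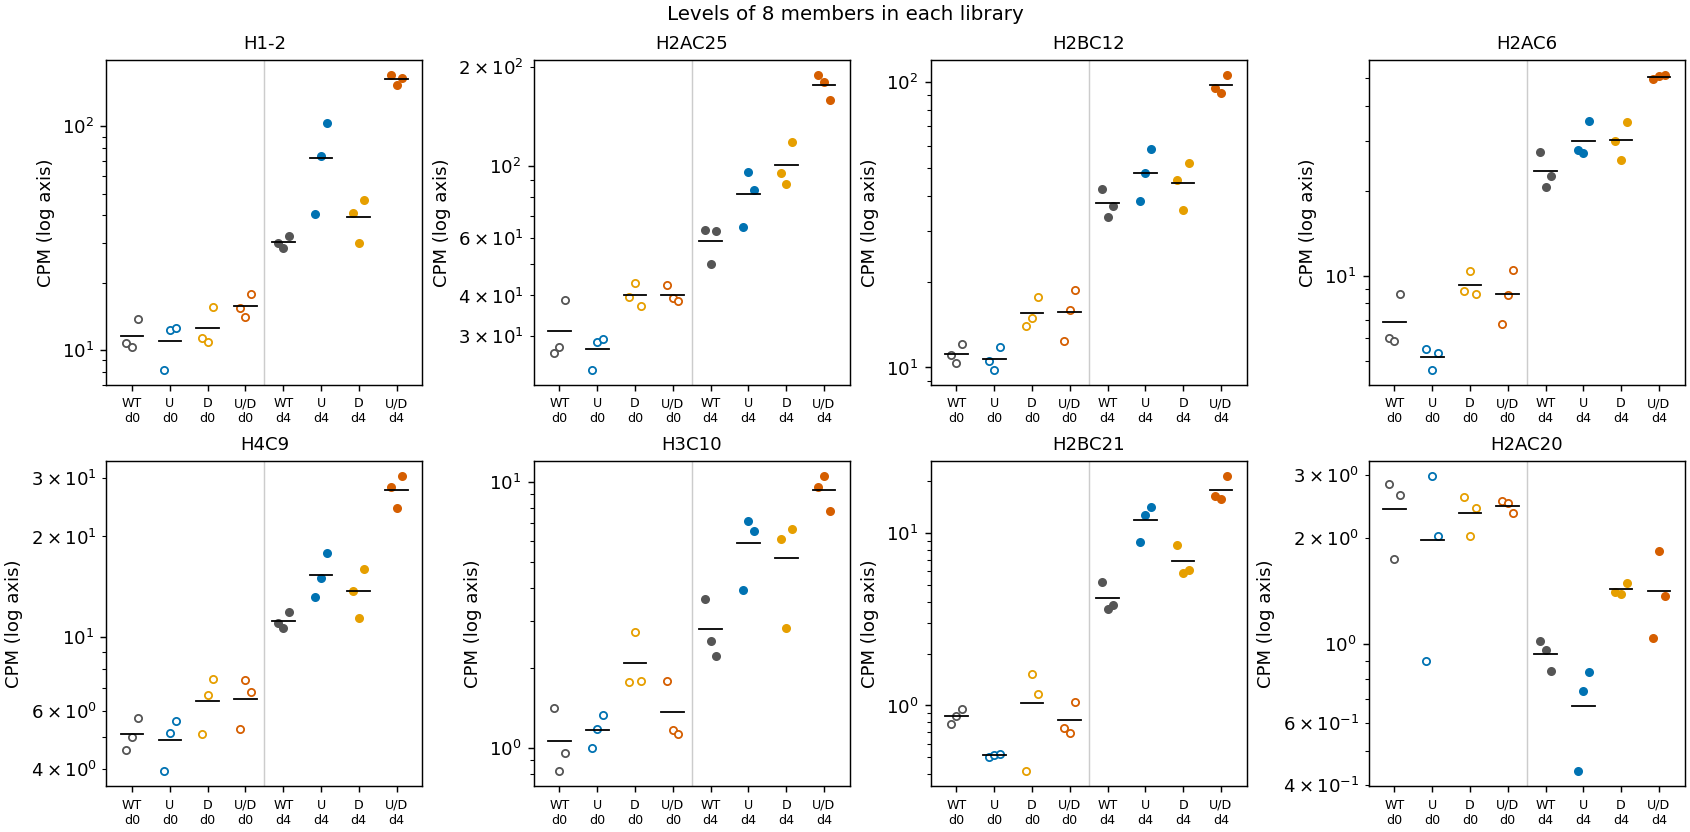
CPM of 8 members in each library, on log axes that differ between panels, with the group mean as a line and the groups as in the plot of sums. H1-2, H2AC25, H2BC12, H2AC6, H4C9, H3C10 and H2BC21 are higher at day 4 than at day 0 in every line, with no overlap, and H2AC20 is lower at day 4 in every line, with no overlap, down to 0.439 CPM in 1 UHRF1-AID library.

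The 2 alignment folders named in the headers of the tables divide these comparisons. One holds all day 0 libraries and the UHRF1-AID libraries of day 4, and the other holds the remaining 9 libraries of day 4, which alone have counts on spike-in RNA. Day 4 against day 0 in UHRF1-AID cells lies within 1 folder, and 12 members rose there too. In WT, DNMT1-AID and compound cells the folder and the day cannot be told apart.

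Against WT at day 4, the question was whether the members moved beyond what WT cells showed under the same agents. UHRF1-AID/DNMT1-AID cells had 12 of 19 tested members higher and none lower, when 9.21% of all genes were called higher and 2.49% lower. At any fold 14 were higher and 0 lower, against 20.4% and 17.8% of all genes, and 16 and 0 did not overlap, against 24.5% and 25.4%. The median of the members was 1.32 against 0.02 for all genes. All 6 libraries of this comparison came from 1 alignment folder. The filter let 4 members (H2BC17, H4C8, H4C5 and H2BC26) into this comparison and not into that of either other line, and H4C8 (6, 2 and 1 counts in WT, 11, 31 and 30 in the compound line) and H2BC17 (2, 4 and 5 and 19, 15 and 29) were let in by the libraries in which they are high. Of the 15 members tested in all 3 lines 10 were higher. By family, of the 19, 1 of 1 H1, 3 of 5 H2A, 5 of 8 H2B, 1 of 2 H3 and 2 of 3 H4 genes tested were higher.

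H1-2 had the smallest p, at 30.1, 28.7 and 32.2 CPM in WT and 170.0, 154 and 165 in the compound line (log2 fold change 2.44 ± 0.10, adjusted p = 1.18e-13). H2AC25 was at 63.5, 50.01 and 63.1 and 189.5, 180.4 and 159 CPM (log2 fold change 1.599 ± 0.11, adjusted p = 4.09e-10), and H2BC12 at 42.3, 33.7 and 36.9 and 95.7, 91.6 and 106 (log2 fold change 1.396 ± 0.11, adjusted p = 2.76e-09). For these 3 genes every compound library lay above every WT library, with room between. H2BC21 went up to 16.4, 15.8 and 21.5 CPM from 5.23, 3.61 and 3.85 (log2 fold change 2.098 ± 0.19, adjusted p = 3.1e-08), and the H4 gene H4C9 to 28.1, 24.3 and 30.4 from 10.97, 10.7 and 11.8 (log2 fold change 1.32 ± 0.14, adjusted p = 2.35e-07). H2AC6 was 27.4, 20.7 and 22.5 CPM in WT and 49.9, 50.8 and 51.4 in the compound line (log2 fold change 1.12 ± 0.12, adjusted p = 3.06e-07). The other 6 that were called higher were H3C10, H2BC11, H2BC4, H4C8, H2BC17 and H2AC13, with log2 fold changes between 1.11 and 2.96.

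Of the tested members that were not called, H2BC5 (log2 fold change 0.63 ± 0.17, adjusted p = 0.00671) and H2AC11 (log2 fold change 0.91 ± 0.26, adjusted p = 0.00783) passed the adjusted p alone. H3C6 had a log2 fold change of 0.097 ± 0.22, H2BC15 of 0.01 ± 0.41 and H2AC20 of 0.602 ± 0.38. H3C6 had risen over the 4 days in all 4 lines and was between 3.87 and 5.82 CPM in the compound line at day 4, overlapping with the 4.4, 4.21 and 5.17 CPM of WT. H3C10, the other H3 gene tested, was at 3.63, 2.53 and 2.22 CPM in WT and 9.64, 10.6 and 7.81 in the compound line (log2 fold change 1.76 ± 0.23, adjusted p = 3.48e-06).

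UHRF1-AID cells had 3 of 15 tested members higher than WT at day 4 and none lower, when 5.77% and 1.22% of all genes were called. At any fold the same numbers passed, against 10.9% and 6.57% of all genes, and 6 were higher and 1 lower without overlap, against 21% and 16.4%. The median of the members was 0.34 and that of all genes 0.03. H2BC21 was at 8.82, 12.8 and 14.1 CPM against 5.23, 3.61 and 3.85 in WT (log2 fold change 1.48 ± 0.25, adjusted p = 0.00377), with no overlap. H1-2 was at 40.7, 73.5 and 104 CPM against 30.1, 28.7 and 32.2 (log2 fold change 1.25 ± 0.31, adjusted p = 0.0325), and its 3 UHRF1-AID libraries were spread over a wide range above WT. H3C10 was at 3.95, 7.14 and 6.59 CPM against 3.63, 2.53 and 2.22 (log2 fold change 1.07 ± 0.30, adjusted p = 0.0379). Of these calls H2BC21 alone was kept whichever library was left out. The count was 1 without WT library 1, WT library 2, UHRF1-AID library 2 or UHRF1-AID library 3. The call of H1-2 was lost in these 4 fits, and that of H3C10 in these and without WT library 3 or with the replicate number as a block. Folder and line cannot be told apart in this comparison.

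DNMT1-AID cells had none of 15 tested members called against WT at day 4, when 2.29% of all genes were called higher and 0.28% lower. DESeq2 called none either, and 5 members had an unadjusted p under 0.05, all of them higher. At any fold 1 was higher, against 5.02% of all genes higher and 2.93% lower, and 3 were higher and 0 lower without overlap, against 14.2% and 14.9%. The median of the members was 0.37 and that of all genes 0.00, and 14 of the 15 values were above 0, while in UHRF1-AID cells 12 of 15 were. The DNMT1-AID line already had a median of 0.24 against WT at day 0, with 10 of 14 values above 0. At day 4 H2AC25 came closest, at 94.7, 88.02 and 118 CPM against 63.5, 50.01 and 63.1 in WT (log2 fold change 0.77 ± 0.13, adjusted p = 0.00304), below the fold threshold. Without DNMT1-AID library 2, 1 member, H3C10, was called. H1-2 was at 41.1, 30.2 and 46.95 CPM (log2 fold change 0.38 ± 0.15, adjusted p = 0.137), overlapping with WT, and H2BC21 at 8.57, 5.86 and 6.105 CPM, above every WT library (log2 fold change 0.702 ± 0.23, adjusted p = 0.0764).

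**Figure D3:**
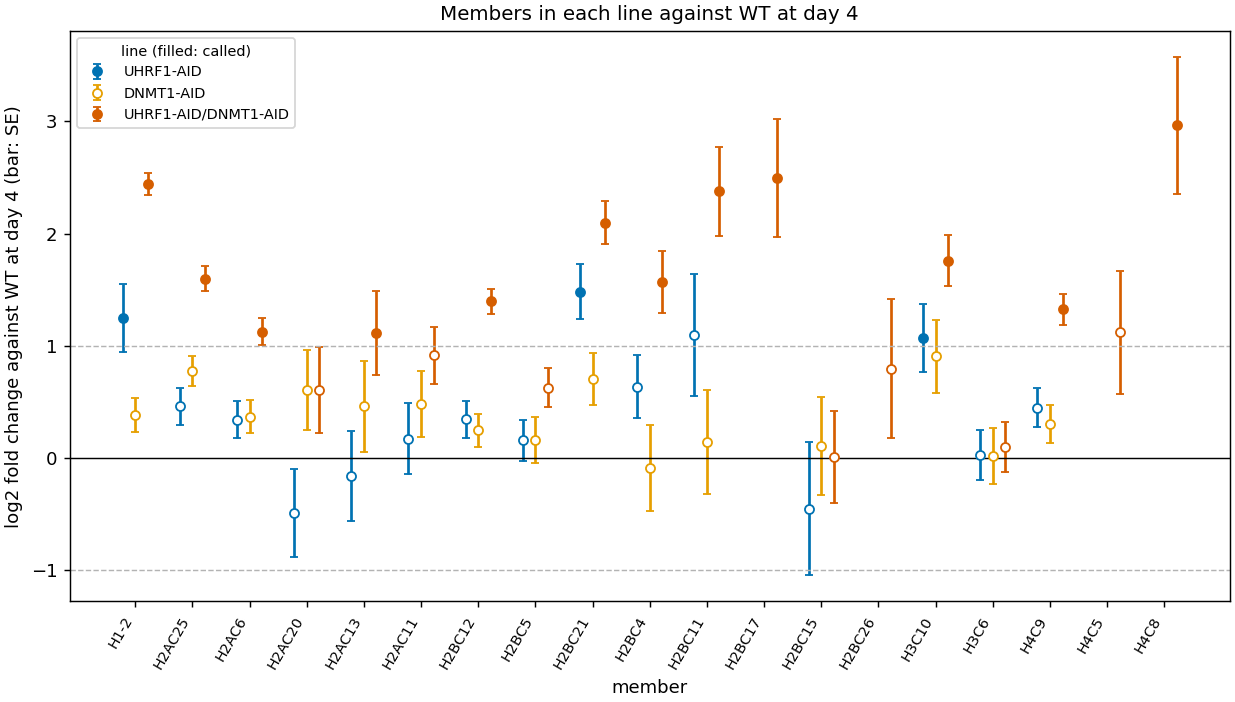
Log2 fold change of each tested member against WT at day 4, with its SE as a bar, with UHRF1-AID in blue, DNMT1-AID in yellow and the compound line in orange, filled where called. Dashed lines stand at 1 and -1, and the compound line has 12 filled points, UHRF1-AID 3 and DNMT1-AID none.

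Before auxin, no member was called in any tagged line against WT. In UHRF1-AID cells 0 of 14 tested members were called, with 0% of all genes called higher and 0% lower, and 1 member had an unadjusted p under 0.05. DNMT1-AID cells likewise had 0 of 14, with 0% and 0.00723% of all genes, and 2 members at that unadjusted p. The compound line had 0 of 15, with 0.656% of all genes called in each direction, and 4 members at that unadjusted p. DESeq2 called 0 members in each of these comparisons. At any fold 0 members passed in any of the lines, against 1.53% of all genes higher and 2.1% lower in the compound line and the values above in the others. Without overlap, UHRF1-AID cells had 0 members higher and 2 lower (6.12% and 4.79% of all genes), DNMT1-AID cells 3 and 0 (5.7% and 4.1%) and the compound line 3 and 0 (14.9% and 13.2%). The smallest adjusted p was that of H2BC5 in the compound line, at 7.49, 9.76 and 11.96 CPM against 4.68, 5.12 and 6.02 in WT (log2 fold change 0.86 ± 0.20, adjusted p = 0.0528). The compound line had a median of 0.30 over its tested members, with 13 of 15 values above 0. For DNMT1-AID cells the median was 0.24, with 10 of 14 above 0, and for UHRF1-AID cells -0.07, with 3 of 14. Medians of all genes lay between -0.01 and 0.01. Compound libraries summed to between 107 and 121 CPM over all members at day 0, above the 77.3 to 103 CPM of WT.

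**Figure D4:**
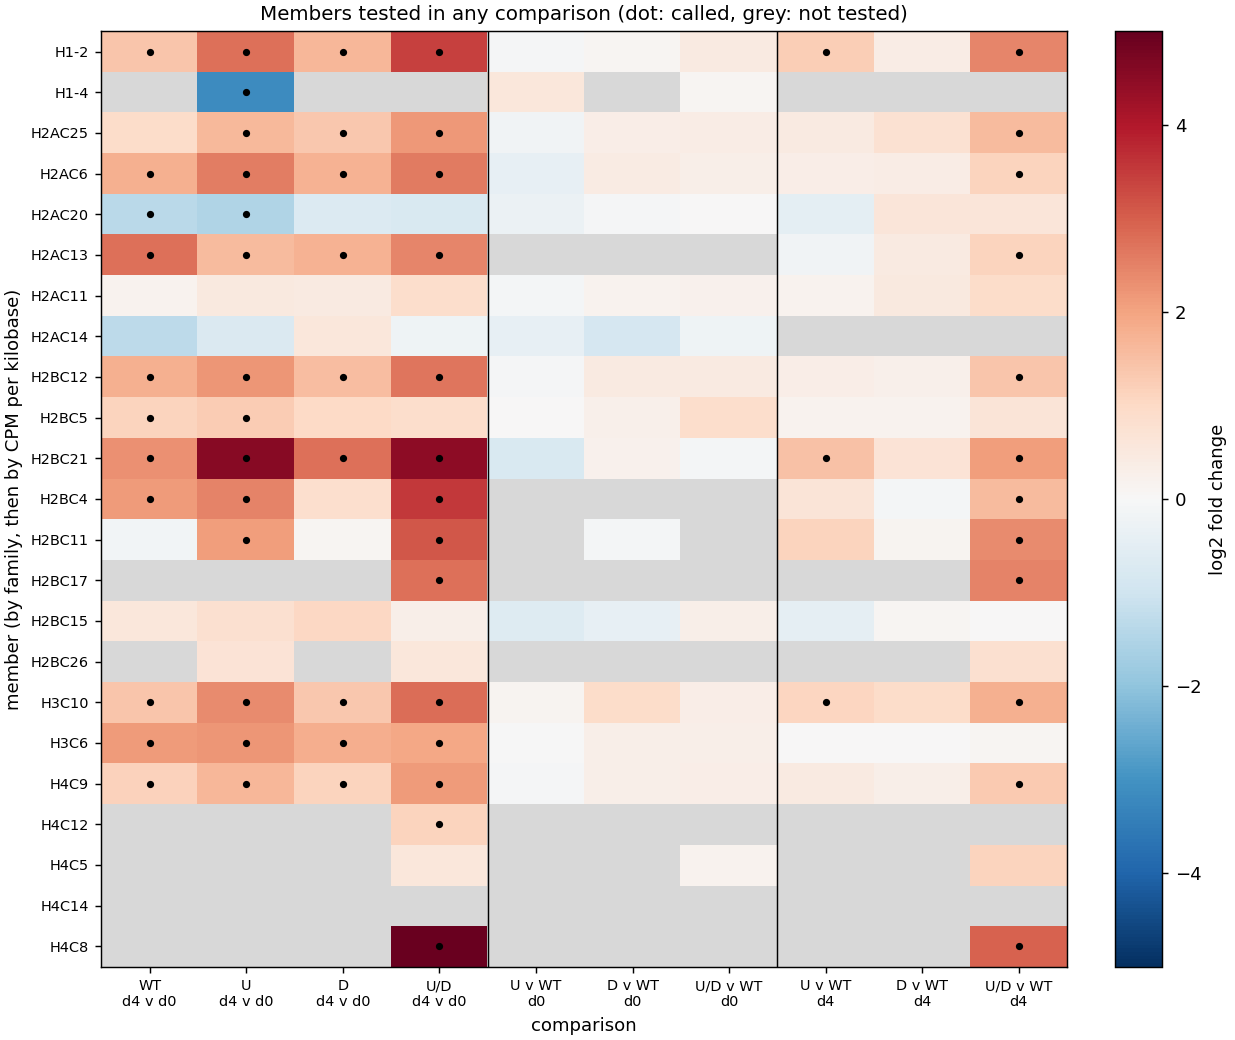
Log2 fold changes (colour) of the 23 members tested in any comparison, by family, for day 4 against day 0 in each line, each line against WT at day 0, and each line against WT at day 4, with a dot where called and grey where not tested. The 4 columns on the left hold most of the dots, the 3 columns of day 0 hold none, and H4C14 was tested in a comparison of day effects alone.

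Whether the day effect itself differed between a line and WT was tested in fits of 12 libraries. For the compound line 6 of 21 tested members had a larger day effect than in WT and none a smaller one, when 3.46% and 1.96% of all genes were called. These were H1-2 (difference of log2 fold changes 1.96 ± 0.16, adjusted p = 6.54e-06), H2AC25 (1.19 ± 0.19, adjusted p = 0.00087), H2BC21 (2.14 ± 0.35, adjusted p = 0.0011), H2BC11 (3.19 ± 0.65, adjusted p = 0.00437), H3C10 (1.38 ± 0.41, adjusted p = 0.0314) and H2BC17 (2.48 ± 0.81, adjusted p = 0.0496). H2BC11 was at 0.976, 0.4096 and 0.563 CPM in WT at day 0 and 0.638, 0.722 and 0.421 at day 4. In the compound line H2BC11 went from 0.438, 0.216 and 0.435 to 2.702, 2.03 and 4.47 CPM. H2BC17 had 6, 3 and 2 and 2, 4 and 5 counts in WT at day 0 and day 4, 4, 4 and 5 in the compound line at day 0 and 19, 15 and 29 at day 4, so that it passed the filter through the group where it is high. Of the 16 members tested over the 4 days in every line, 5 were called. The call of H2BC17 held in 1 of 12 fits that left out a library, the one without WT day 0 library 3, with an adjusted p of up to 0.214 over all settings. That of H3C10 held in 5 of 12, and was lost without WT day 0 library 1, WT day 4 library 2 or 3, or compound day 0 library 2 or 3 or day 4 library 1 or 2, with an adjusted p of up to 0.106. At any fold 9 passed, all higher, against 6.14% of all genes higher and 9.12% lower. H2BC12 (0.88 ± 0.19, adjusted p = 0.0057), H4C9 (0.94 ± 0.21, adjusted p = 0.00776) and H2AC6 (0.77 ± 0.23, adjusted p = 0.0356) passed the adjusted p but not the fold threshold.

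For UHRF1-AID cells 1 of 19 tested members, H2BC21, had a larger day effect than in WT (2.22 ± 0.37, adjusted p = 0.00805), when 1.81% of all genes were called higher and 0.465% lower. At any fold the same member passed, against 2.59% and 1.02% of all genes. H1-2 had a difference of 1.31 ± 0.39, adjusted p = 0.089. Without UHRF1-AID day 4 library 1, 2 members were called, the added one being H1-2. For DNMT1-AID cells 0 of 17 tested members were called, with 0.132% and 0.00696% of all genes, and 1 member had an unadjusted p under 0.05. At any fold 0 passed, against 0.139% and 0.0139% of all genes. DESeq2 called 0 here as well.

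The 42 members tested in no comparison had between 1 and 100 counts each over all libraries where they had any, and summed to between 1.29 and 2.64 CPM on average in the 7 groups other than the compound line at day 4. In that group they summed to 4.62 ± 0.23 CPM (SD, n = 3). H2AC8, an H2A gene, had 0 counts in 21 libraries and 2, 13 and 11 in the compound line at day 4, at least 8.68-fold higher than in WT at day 4 when WT is set to a floor of 3 counts over the group. H4C8 had 2, 0 and 1 counts in the compound line at day 0 and 11, 31 and 30 at day 4, a ratio of summed counts of 33.9 with an exact 95% interval of 11.1 to 168. That interval and the floor cover counting error only. With no filter on low counts, H2AC8 (adjusted p = 0.000281), H4C12 and H2BC8 were also called higher in the compound line than in WT at day 4, and H2AC8, H2BC8, H2BC6, H4C14 and H4C16 higher at day 4 than at day 0. Lower at day 4 with no filter was H4C3, an H4 gene, with 3, 6 and 4 counts at day 0 and 0, 0 and 0 at day 4 in UHRF1-AID cells (adjusted p = 0.0146) and 5, 15 and 2 and 1, 0 and 0 in DNMT1-AID cells (adjusted p = 0.0213). H1-4 was called lower at day 4 than at day 0 in the lines where it had not been tested, WT (-2.55 ± 0.89, adjusted p = 0.0242), DNMT1-AID (-2.36 ± 0.89, adjusted p = 0.0343) and compound cells (-2.70 ± 0.85, adjusted p = 0.00449). H1-4 had at most 5 counts in any day 4 library and at least 7 in every day 0 library.

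Many of the members lie in pairs with opposed starts, and 12 such pairs have starts within 1000 bases of each other. The partners were rarely alike in level. H2AC25 had 30039 counts over all libraries and H2BC26, 234 bases away, 196. H2BC12 had 15079 and H2AC12, 331 bases away, 42. H2AC6 and H2BC4, 219 bases apart, both rose in WT, UHRF1-AID and compound cells, while in DNMT1-AID cells H2BC4 had 0.83 ± 0.46. H2BC21 and H2AC20, whose starts on chromosome 1 are 323 bases apart, differed in direction. In WT cells H2BC21 rose by a log2 fold change of 2.28 and H2AC20 had -1.34, and in UHRF1-AID cells the values were 4.54 and -1.52, all called. The H2BC21 model runs 1729 bases past its stem-loop and that of H2AC20 ends before it. Members annotated 50 bases or more past the stem-loop made up 9 of the 14 that rose in the compound line, of 14 tested, and the others 5 of 7 tested. The decreases called with the filter, H2AC20 and H1-4, were both in members not annotated past it.

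No gene that acts on histone RNA and no histone chaperone of the lists was called higher in the compound line, over the 4 days or against WT at day 4. Of all genes 15.1% and 9.21% were called higher in these comparisons. Of 24 genes for transcription and processing of histone RNA, among them NPAT, SLBP and LSM11, 0 were called in the compound line against WT at day 4, 6 passed the adjusted p alone with lower values, against 17.8% of all genes, and the list's median was -0.16. At an unadjusted p under 0.05, 9 were lower and 0 higher, and DESeq2 called 0. The share of all genes at an unadjusted p was not computed, so such numbers are not read as a trait of these lists. Over the 4 days in the compound line 4 of these 24 fell, when 11.5% of all genes did. They were ERI1, an exonuclease that trims histone mRNA ends (-1.67 ± 0.09), SYMPK, a scaffold of the cleavage complex (-1.25 ± 0.08), SRRT (-1.66 ± 0.10), which binds the nuclear cap-binding complex, and CASP8AP2 (-1.75 ± 0.15), a factor of histone gene transcription. Of 19 histone chaperones, 18 were tested, and over the 4 days 11 fell in the compound line, 7 where DNMT1 alone was tagged, 6 where UHRF1 alone was and 4 in WT cells, beside 11.5%, 6.68%, 9.82% and 6.53% of all genes. The difference between lines in these counts was not tested. Against WT at day 4 none of the 18 was called in the compound line by edgeR or DESeq2, with 1 higher and 9 lower at an unadjusted p under 0.05. SUPT16H and SSRP1, the subunits of the FACT complex, fell in all 4 lines. Of 13 symbols on the list of replication-independent histone genes, 11 were tested. Against WT at day 4 none was called in the compound line by edgeR or DESeq2, with 2 higher and 5 lower at an unadjusted p under 0.05.

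S phase genes did not rise with the members. Of 42 tested S phase genes, 3 were called lower in the compound line than in WT at day 4 (RRM1, CDCA7 and E2F8), and 28 were lower at an adjusted p under 0.05 at any fold, against 17.8% of all genes, with a median of -0.58. In UHRF1-AID cells TYMS and E2F8 were called lower, and in DNMT1-AID cells E2F8. Over the 4 days 8 of them fell in WT (median of the list -0.62), 17 with tagged UHRF1 (-0.93), 14 with tagged DNMT1 (-0.79) and 24 in the compound line (-1.11), beside 6.53%, 9.82%, 6.68% and 11.5% of all genes. Of 54 G2/M genes, SMC4 alone was called lower in the compound line against WT at day 4, while 31 passed the adjusted p alone with lower values, against the same 17.8%, with a median of -0.38. Over the 4 days 15 of the 54 fell in WT, 29 with tagged UHRF1, 26 with tagged DNMT1 and 33 in the compound line. Beside these stand 6.53%, 9.82%, 6.68% and 11.5% of all genes called lower. In bulk samples fewer cells of a kind and less RNA per cell cannot be told apart, and the part of the cell cycle in the members' values was not tested.

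The libraries held between 15824804 and 25073821 counts on genes. Epithelial markers were strong in every library, with a summed level of the 10 markers between 3956 and 8229 CPM, although VIL1, with 31 counts over all libraries, and LGR5, with 9, were close to 0. KRT20 and CDX1 were above WT at day 4 by the same test in UHRF1-AID and compound cells, and CDX2 in compound cells. The markers as a sum were lower there, between 5079 and 5772 CPM in the compound line at day 4 and between 7021 and 7208 in WT, without overlap. KRT19 (log2 fold change -0.68 ± 0.11) and KRT8 (-0.28 ± 0.10) were lower at an adjusted p under 0.05 and below the fold threshold. CDX1 had 0 counts in WT at day 4, and was at least 29.4-fold higher in the compound line against a floor of 3 counts. The 8 markers of other cells summed to between 18.1 and 21.2 CPM in the compound line at day 4 and between 3.38 and 9.02 in WT, nearly all of it from COL1A1, which was called higher (log2 fold change 1.64 ± 0.30) and was the one marker of this list that edgeR could test, while DESeq2 called 3 of them higher. COL1A2, CDH5 and CD3E had 8, 4 and 11 counts over all libraries. Their part in the members' values was not tested. Short genes as a class also moved. Genes under 1000 bases had a median log2 fold change of 0.17 in the compound line and -0.24 in UHRF1-AID cells against WT at day 4. After correction for gene length 11 and 3 members were called higher in these comparisons, against 12 and 3 without it.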

How the data were processed

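Poly(A) RNA was made into libraries with a NEBNext Ultra kit. The authors used Trimmomatic for trimming, STAR for alignment to hg38 and featureCounts for counting. They deposited raw counts, 1 table per library, with a length per gene, taken here in bases. Strand and multi-mapping settings are not given in the sources used here. The 92 spike-in sequences, with between 0.891% and 1.65% of counts in 9 libraries and 0 in 15, were left out.

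Members and gene lists were chosen with earlier results of these data known. Counts were tested with R 4.3.3 and edgeR 4.0.16 (filterByExpr, TMM, robust quasi-likelihood test, Benjamini-Hochberg adjustment over all genes tested), each fit holding only the groups compared. SE is the log2 fold change divided by the square root of F. The fits were tested on simulated counts. Named are, per family, the 3 members highest in CPM per kilobase, per comparison the 6 called members with the smallest p in each direction, and per other list the 3 called genes with the smallest p in each line against WT at day 4. Other genes named were chosen after their values were seen. Lists for S and G2/M phase came from Seurat 5.3.0. The paper's methods name DESeq2, which was run as an alternative (DESeq2 1.42.0). The other alternatives were RLE scaling, no filter, a minimum of 10 counts in each library, a joint fit over all 24 libraries, a block for replicate number, a lowess correction for gene length (span 0.3), both of these, an adjusted p under 0.01, no minimum fold, and 96 fits without 1 library. Stem-loops and shared 100-base stretches were sought in hg38 with GENCODE 44, and promoters came from RefSeq.

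Same-numbered libraries were checked for pairing by the correlation of their deviations across genes, which lay between -0.622 and 0.235. For the day effect of UHRF1-AID cells all 3 exceeded 0.1 (0.228, 0.143 and 0.122), and there the numbers may mark pairs. The values printed for that comparison come from the fit without a replicate block. With the block 14 members were called there, as without it. No 2 replicates were alike within counting noise: over 24 pairs, chi-square was 3.71 to 64.3 times its degrees of freedom. Python 3.11.15 with pandas 2.3.3 and matplotlib 3.10.9 served for the figures.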

Additional observations from a re-analysis of the deposited data

Results flagged for a closer look

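The day effect of 6 members differed between the compound line and WT, and that of 1 member between UHRF1-AID and WT, by the test of the difference itself. In UHRF1-AID/DNMT1-AID cells the difference of log2 fold changes was 1.96 for H1-2, 1.19 for H2AC25, 2.14 for H2BC21, 3.19 for H2BC11, 1.38 for H3C10 and 2.48 for H2BC17. In UHRF1-AID cells it was 2.22 for H2BC21. The differences of H1-2, H2AC25, H2BC21 and H2BC11 were called in each of 12 fits that left out a library. Over those fits and the other settings H3C10 had an adjusted p of up to 0.106 and H2BC17 of up to 0.214. H2BC17 entered the test through the compound libraries of day 4, where it is high. WT and the compound line cross the alignment folders alike between the days, while UHRF1-AID cells do not, and there the folder and the line cannot be told apart.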

How the results depend on the processing

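Of 819 recomputed fold changes of named genes none reversed, and 776 were on the same side of the thresholds. Settings in which a gene dropped out of the test are not among the 819. Counts of called members moved in few settings. At an adjusted p under 0.01, 1 member was called in UHRF1-AID against WT at day 4. With no minimum fold 1 was called in DNMT1-AID against WT at day 4. With at least 10 counts in every library, which removes low genes, 9 were called in UHRF1-AID and 8 in compound cells for day 4 against day 0. For the day effect of UHRF1-AID minus that of WT, 2 were called with no filter, with all 24 libraries in 1 fit, with the length correction, with the replicate block and length correction together, and with DESeq2. Leaving out 1 library gave 1 to 3 members for UHRF1-AID, 0 to 1 for DNMT1-AID and 11 to 15 for the compound line against WT at day 4, 0 to 0 in each line at day 0, 10 to 12, 12 to 14, 8 to 10 and 14 to 16 for day 4 against day 0 in WT, UHRF1-AID, DNMT1-AID and compound cells, and 1 to 2, 0 to 0 and 4 to 6 for the 3 differences of day effects. The replicate block gave 12 members in the compound line and 2 in UHRF1-AID against WT at day 4, and moved no count by over 1.5 times. Whether samples with the same number share more than that number, such as a clone, is not given by the labels. With 3 libraries in a group and most members under 1 CPM, 42 of 65 members could not be tested, and the cause of the moved counts was not tested where not stated.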
